A study of Mus musculus with 12 samples.

Results

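Albumin and 9 other carrier proteins of the blood plasma made up 18.2% ± 3.4 (SD, n = 3) of the ribosome-protected fragment (RPF) reads tabulated for wild-type (WT) mouse liver. Of its tabulated input RNA reads they made up 8.61% ± 0.78. The 10 genes were chosen by name (Alb, Afm, Gc, Ttr, Trf, Hpx, Ahsg, Fetub, Rbp4 and Ambp). All 10 were found among the 10607 genes of the deposited table of normalized values. Shares of reads are of the reads on these 10607 genes, not of all sequenced reads, unless another denominator is named. Ribosome profiling sequences the stretches of mRNA that ribosomes shield from nuclease, here MNase. The input is RNA from the same lysate before digestion, and translation efficiency (TE) is the RPF value of a gene over its input value.

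The series compared livers of 3 WT mice with livers of 3 Mettl5 knockout (KO) mice, each KO mouse being a littermate of the WT mouse with the same number, and each liver gave 1 input and 1 RPF library. METTL5 methylates 1 adenosine of 18S rRNA, in the small subunit of the ribosome. The KO is a whole-body one: a floxed exon was removed by crossing to a CMV-cre line, in mice derived from C57bl/6 x 129S6 ES cells and backcrossed to B6. All livers were snap-frozen and lysed in cycloheximide, which holds ribosomes on mRNA, and the age and sex of each single mouse are not given in the sources used here (the study as a whole used both sexes, aged from 4 weeks to 6 months).

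In the files' mouse build, mm10, 3 members lay on chromosome 5 and belong to the albumin family. Gc spans 89417522 to 89457898 on the minus strand, Alb 90460897 to 90476602 on the plus strand, and Afm 90518932 to 90553543 on the plus strand, 42329 bases beyond Alb. The fetuin genes were neighbours on chromosome 16, Ahsg at 22891277 to 22899449 and Fetub at 22918334 to 22939778, both on the plus strand and 18884 bases apart. Trf lay on chromosome 9 (103204001 to 103230444), Hpx on chromosome 7 (105591613 to 105600137), Rbp4 on chromosome 19 (38116629 to 38125281) and Ambp on chromosome 4 (63143275 to 63154799), these 4 on the minus strand. Ttr lay on chromosome 18 (20665280 to 20674321, plus strand). Footprints come in the main from coding sequence, whereas input reads were counted over all exons of a gene.

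Hepatocytes make most plasma proteins and release them into the blood. Their mRNAs are translated on ribosomes bound to the endoplasmic reticulum, where a leucine-rich signal peptide at the start of the chain directs it into the lumen and disulfide bonds between cysteines are formed before export. Carrier proteins keep poorly soluble or reactive ligands in circulation: albumin binds fatty acids, bilirubin and drugs, afamin (Afm) vitamin E, the vitamin D-binding protein (Gc) vitamin D metabolites and actin, transthyretin (Ttr) thyroxine and, with the retinol-binding protein (Rbp4), vitamin A. Transferrin (Trf) carries iron and hemopexin (Hpx) free haem. Fetuin-A (Ahsg) binds calcium phosphate, fetuin-B (Fetub) inhibits the protease ovastacin, and the Ambp precursor is cut into alpha-1-microglobulin and bikunin. In what follows Gc is the gene, and GC content, always written in full, is the percent of G and C bases.

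The coding sequences began alike. The first 20 codons of the 10 members held 4 to 6 leucine codons, and 8 members held at least 5, which 12.0% of the 8985 tested genes with a coding sequence did (median 2). The first 60 coding bases of the 4 members whose RPF values are described most closely below are shown from GENCODE M21 transcripts, from the start codon on, with leucine codons in capitals.
Alb: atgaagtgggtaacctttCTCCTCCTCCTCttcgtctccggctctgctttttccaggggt
Gc: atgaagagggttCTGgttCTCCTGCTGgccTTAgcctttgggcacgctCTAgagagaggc
Fetub: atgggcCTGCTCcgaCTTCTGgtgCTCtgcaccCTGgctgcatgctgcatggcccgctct
Ahsg: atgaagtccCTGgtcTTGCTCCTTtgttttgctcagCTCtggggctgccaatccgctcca
In Alb the 4 leucine codons form 1 run of CTC, whereas in Gc, Fetub and Ahsg several leucine codons are mixed and interrupted. Over their whole coding sequences most members were rich in cysteine. It made up 5.92% of the residues of Alb, 5.88% of Gc, 5.59% of Afm and 5.45% of Trf. The median over all genes tested was 1.85%. Of the 10 members, 7 lay above the 90th percentile for cysteine, and Ttr (1.36%) lay below the median.

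The libraries held between 2398804 and 5121304 input reads and between 4623826 and 9184242 RPF reads in the table. The least covered member, Afm, had 381 to 921 input and 1953 to 3813 RPF reads per library, and Alb had 116146 to 296227 and 381307 to 923605. Mettl5 itself was at 47.8 to 58.4 normalized RPF units in WT and 5.53 to 9.56 in KO, and at 15.7 to 38.5 and 7.995 to 9.30 in the input, with no overlap in either assay. Of the 10 hepatocyte markers outside the members, all 10 were detected in every input library, and their summed level in CPM, reads per library size, was 8383 to 8520 in WT and 7440 to 9609 CPM in KO. Markers of stellate cells and fibroblasts (7, of which 6 were detected in every library) were higher in KO, at 87.5 to 95.4 CPM against 66.0 to 75.6 CPM in WT, and their part in the results below was not tested. The other lists overlapped between genotypes: Kupffer cell markers (8 of 8 detected) were at 81.3 to 118.0 CPM in WT and 71.2 to 110.5 in KO, endothelial markers (8 of 8) at 102.3 to 120.2 and 103.7 to 128.4, cholangiocyte markers (3 of 5) at 6.33 to 8.13 and 6.55 to 9.34, lymphocyte markers (2 of 6) at 2.38 to 6.04 and 3.35 to 4.87, and erythroid markers (5 of 5) at 45.8 to 61.0 and 40.9 to 47.8. In whole liver, fewer hepatocytes and less RNA per hepatocyte cannot be told apart.

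Among the genes with normalized values, Alb was the most abundant in every RPF library and ranked second in every input library. In the full input counts, which include rRNA genes, Alb held 1.08% to 2.50% of reads. An rRNA gene (45.8% to 63.8%), Lars2 (7.36% to 8.63%) and mt-Rnr2 (3.95% to 5.64%) each held more. The share of Alb in the RPF reads was 15.3%, 10.8% and 8.56% in the 3 WT mice and 12.4%, 8.68% and 8.25% in their KO littermates, in the same litter order. Litter 1 was the highest in both genotypes, and the KO mouse was below its littermate each time, but the groups overlapped. In the input the share of Alb was 5.56%, 5.51% and 4.22% in WT and 5.78%, 4.16% and 4.26% in KO, again overlapping. In litter 1 the direction depended on the scale, since the normalized input value of Alb was 244533 in WT and 194845 in KO.

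The other carriers were well below Alb. Trf took 1.96% to 2.50% of RPF reads and 1.14% to 1.63% of input reads over the 6 mice, Ttr 1.72% to 2.39% and 0.724% to 0.890%, and Gc 0.607% to 1.08% and 0.307% to 0.399%. Ahsg, Rbp4, Ambp and Hpx each took between 0.298% and 0.675% of RPF reads. Fetub (0.0711% to 0.0996% of RPF reads) and Afm (0.0395% to 0.0563%) were the least abundant. They ranked between 126 and 183 and between 218 and 331 among the genes with normalized values. The plot of shares by library shows that the order of the members by share was nearly the same in the input and RPF libraries, with Trf above Ttr in every input library.

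**Figure D1:**
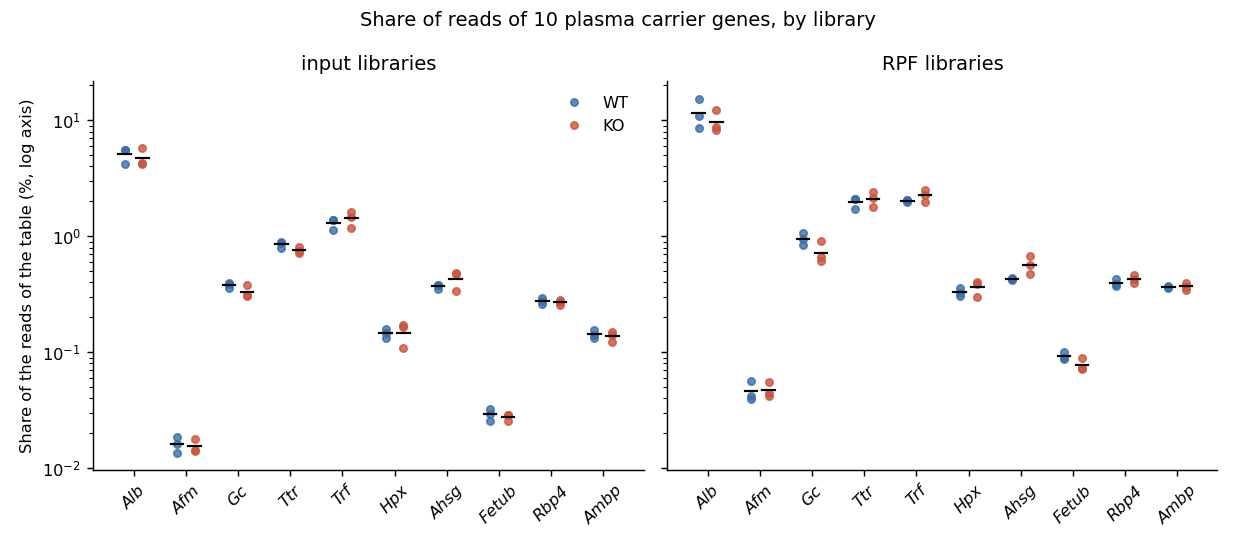
Share of the reads of the table taken by each of the 10 genes (%, log axis) in the input libraries (left) and RPF libraries (right), with 1 point per mouse (blue WT, red KO, n = 3 each) and a bar at the mean. Alb stood alone at 8.25% to 15.3% of RPF reads, and WT and KO points overlapped for every gene in both assays except Ahsg in the RPF libraries.

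Together the 10 members took 21.9%, 17.5% and 15.2% of RPF reads in the WT mice and 19.8%, 14.8% and 15.5% in the KO mice, a mean of 16.7% ± 2.7 in KO. Their input share was 8.90%, 9.20% and 7.73% in WT and 9.72%, 7.27% and 7.84% in KO (8.27% ± 1.28). The RPF share was 1.90 to 2.46 times the input share of the same mouse. This ratio depended on the denominator: when rRNA genes, mitochondrially encoded genes, Lars2 and the Mup genes, which held 20.4% to 33.0% of the table's input reads and 1.94% to 3.10% of its RPF reads, were left out, it was 1.38 to 1.68. The direction of the input share in litter 1 turned as well. The genes left out held 33.0% of the input reads of its WT mouse and 20.4% of those of its KO mouse. Without them the input share was 13.3% in that WT mouse and 12.2% in that KO mouse. Litters 2 and 3 kept their direction. Alb made up 53.2% to 70.2% of the members' RPF reads. The other 9 members held 7.48% ± 0.23 of the RPF reads outside Alb in WT and 7.70% ± 0.93 in KO, and 3.70% ± 0.19 and 3.72% ± 0.46 of such input reads.

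Per gene, WT and KO shares were compared by a two-sided exact permutation test, which with 3 against 3 mice cannot go below p = 0.1. Of the 20 comparisons, 1 reached that value: the RPF share of Ahsg was 0.437%, 0.430% and 0.417% in WT and 0.560%, 0.474% and 0.675% in KO, so that the groups did not overlap (exact permutation p = 0.1). Over all genes tested, 18.3% had RPF shares that did not overlap between genotypes and 6.73% had such input shares. For the other 9 members in the RPF libraries and for all 10 in the input libraries the groups overlapped.

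Levels of different genes were compared per length, as normalized value per kilobase of coding sequence (RPF) or of exon (input). In WT the order was the same on both scales: Alb, Ttr, Trf, Gc, Rbp4, Ahsg, Ambp, Hpx, Fetub and Afm. In the input Alb was 2.705 to 3.19 times Ttr per kilobase in WT, but in the RPF libraries this was 0.989 to 2.17 times in WT and 0.943 to 1.26 times in KO, so that Alb and Ttr were not separated by footprint density in every mouse. Gc and Rbp4 overlapped in WT on both scales, with 27704 to 39459 and 30154 to 37219 RPF units per kilobase. Alb exceeded Afm, the least abundant member, 387 to 443 times in the input and 217 to 273 times in the RPF libraries of WT.

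Baseline TE, taken as the plain ratio of RPF to input, was above that of the median gene for all 10 members, from 1.25 to 1.38 times it for Ahsg to 3.42 to 3.91 times for Fetub in WT. Per length, Ahsg was below the median gene in all 3 WT mice and Trf and Hpx in 2 of 3. In WT the plain ratio was 3.85 ± 0.24 for Fetub, 3.45 ± 0.16 for Afm, 3.11 ± 0.24 for Ambp, 3.03 ± 0.28 for Gc, 2.83 ± 0.47 for Ttr, 2.77 ± 0.41 for Hpx, 2.72 ± 0.49 for Alb, 1.90 ± 0.14 for Trf, 1.75 ± 0.20 for Rbp4 and 1.404 ± 0.085 for Ahsg (SD, n = 3). The median gene was at 1.051 to 1.07, and each member was above it in each of the 6 mice. The median member lay between percentiles 91.5 and 95.2 of the 8994 genes tested in the WT mice and between 87.4 and 95.3 in the KO mice. The plain ratio counts footprints on the coding part against RNA over the whole mRNA, so it is lowered by long untranslated regions.

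Per length (RPF per kilobase of coding sequence over input per kilobase of exon), the members were nearer to the median gene, which was at 3.13 to 3.19 in WT. The exon length covered all annotated exons of a gene, whereas the coding length was that of a chosen transcript. The effect of this on the order was not tested. The order in WT was Ttr (7.57 ± 1.25), Fetub (6.47 ± 0.40), Afm (5.74 ± 0.26), Ambp (4.17 ± 0.32), Gc (3.901 ± 0.36), Rbp4 (3.87 ± 0.44), Alb (3.49 ± 0.63), Trf (3.01 ± 0.22), Hpx (3.00 ± 0.45) and Ahsg (2.97 ± 0.18). Ttr, with a coding sequence of 444 bases the shortest of the members, was 1.93 to 2.71 times the median gene, and Alb 0.993 to 1.32 times. The median member lay between percentiles 57.1 and 63.9 in WT, and 6 to 9 of the 10 members were above the median gene in a given WT mouse.

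Of the 9 neighbouring pairs in this order, 2 had WT ranges that did not overlap: Fetub above Afm, and Afm above Ambp. Over all 6 mice Afm exceeded Ambp in 6 of 6, by 0.48 ± 0.04 on the log2 scale, whereas Fetub exceeded Afm in 4 of 6. Ambp exceeded Gc and Rbp4 exceeded Alb in 6 of 6 mice as well, but their WT ranges overlapped. For each of these 3 pairs the exact two-sided sign-flip permutation test gave p = 0.0312, the smallest 6 mice can give, or 0.0938 adjusted over the 9 pairs. On the plain ratio Alb (2.72 in WT) was above Rbp4 (1.75), so the order of that pair turned with the scale. The length factor of a gene is the same in every mouse, so the test does not measure its error. No pair had an adjusted p under 0.05, so the order per length is that of the WT means only. Gc, listed above Rbp4, exceeded it in 1 of 6 mice. Ttr exceeded Fetub and Alb exceeded Trf in 5 of 6, and Trf, Hpx and Ahsg could not be ordered.

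**Figure D2:**
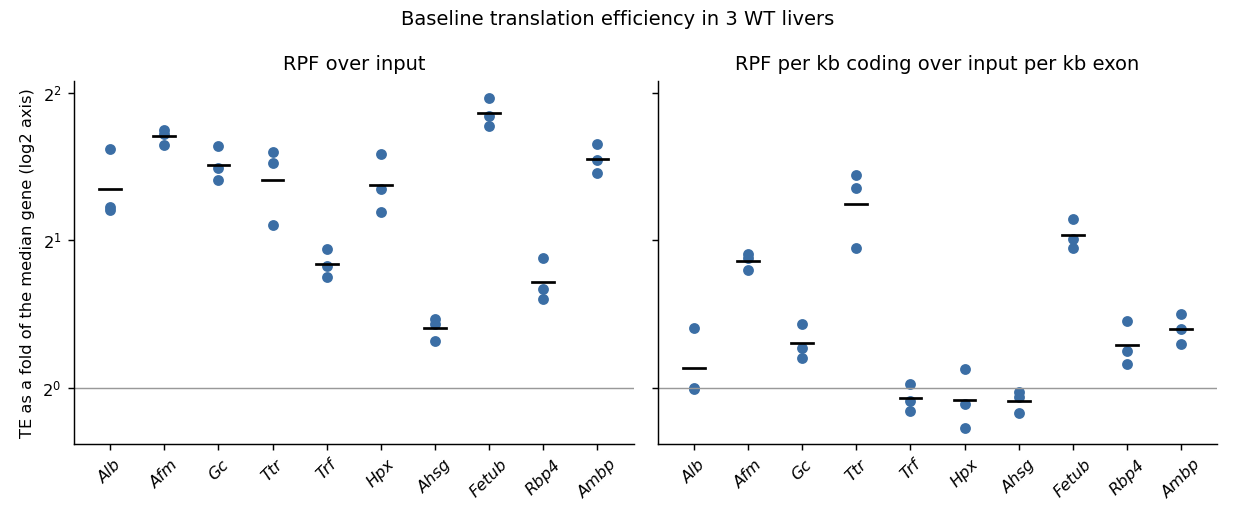
Baseline TE of the 10 genes in the 3 WT livers as a fold of the median gene of the same mouse (log2 axis), as RPF over input (left) and per length (right), with 1 point per mouse and a bar at the geometric mean. All points are above 1 on the left, from 1.25 for Ahsg to 3.91 for Fetub, and on the right Trf, Hpx and Ahsg sit around the median gene.

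The effect of Mettl5 loss on the mRNA level of the carriers was tested in the input counts, and no member passed. In edgeR's quasi-likelihood test with Benjamini-Hochberg adjustment, 0 of 10 members had an adjusted p under 0.05 (lowest 0.999), as did 0% of all 10057 genes tested, where 348 genes had an unadjusted p under 0.05. DESeq2 called 1 gene and limma on the normalized values 2, none of them a member. The fitted log2 fold changes of KO over WT ran from -0.25 for Gc to 0.17 for Ahsg, with 8 of 10 below 0 (50.0% of all genes) and a median of -0.11 against -0.00037 over all genes.

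Gc had the clearest separation in the input. Its normalized input value was 16946, 15818 and 14166 in WT and 12730, 12694 and 13377 in KO, so that every KO mouse was below every WT mouse. It was the 1 member of 10 whose groups did not overlap, which 9.25% of all genes did. It was also the 1 member lower in KO in 3 of 3 litters, as were 14.8% of all genes, and its change was -0.25 (SE 0.14, edgeR adjusted p = 0.999). As a share of the input reads Gc overlapped between genotypes, and both Gc and Ttr were lower in KO in 3 of 3 litters. On normalized values the members other than Gc changed sign between litters. The log2 difference of Hpx within litters was -0.023, -0.52 and 0.32, and that of Fetub -0.55, -0.15 and 0.30.

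In the RPF libraries, 0 of 10 members passed an adjusted p of 0.05 in the limma fit over all 12 libraries on log2(value + 1), with 0.489% of all genes called (44 of 8994). Gc and Fetub had an unadjusted p under 0.05, and 13.4% of all genes did. The whole reads behind the normalized values, tested with edgeR, gave 66 calls and likewise no member. The fitted changes ran from -0.54 for Gc to 0.26 for Ahsg, 8 of 10 below 0 (54.0% of all genes), with a median of -0.066 against -0.033 over all genes.

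Gc gave the largest RPF difference of the 10 members. Its normalized RPF values were 56466, 46612 and 39645 in WT and 43386, 29012 and 26802 in KO. The KO mouse was lower than its littermate in 3 of 3 litters, by 0.38, 0.68 and 0.56 on the log2 scale, yet the KO mouse of litter 1 lay within the WT range. The fitted change was -0.54 (SE 0.17), a fold of 0.686, with a limma adjusted p = 0.150. With litter as a replicate block, which uses the littermate pairing of the labels, the change was the same with an SE of 0.13 and an adjusted p = 0.0231, so Gc passed, the 1 member to do so in a fit that called 3.26% of all genes. Leaving out the KO mouse of litter 1, the one within the WT range, also made it pass, with a change of -0.76 and a limma adjusted p = 0.0195. That fit called 226 genes, against 44 in the main fit. Gc passed in none of the other fits without 1 mouse. Removing each library's trend with coding GC content gave -0.39 with an adjusted p = 0.417, or 0.131 with the litter block as well.

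Alb was lower in KO in every litter but varied as much between WT mice. Its normalized RPF values were 804719, 536850 and 405249 in WT and 593871, 382478 and 364404 in KO. The WT values spanned a range that took in the highest KO value, and the litter differences were -0.44, -0.49 and -0.15 on the log2 scale. The fitted change was -0.36 (SE 0.23, limma adjusted p = 0.531), and with the litter block the adjusted p was 0.177. The value rested partly on litter 1: without the WT mouse of litter 1 the change was -0.098, and without its KO mouse -0.58.

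The adjacent fetuin genes gave RPF changes of opposite sign, and neither passed. Fetub had 5221, 4411 and 4154 normalized RPF units in WT and 4305, 3136 and 3250 in KO, lower in 3 of 3 litters with overlapping groups, and a change of -0.37 (SE 0.16, limma adjusted p = 0.319, or 0.142 with the litter block). Ahsg had 22923, 21361 and 19762 in WT and 26887, 20882 and 29826 in KO. It was higher in KO in 2 of 3 litters and close to its littermate in litter 2 (-0.033 on the log2 scale), with a change of 0.26 (SE 0.16, limma adjusted p = 0.480). Whether the changes of Fetub and Ahsg differ from each other was not tested.

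Of the remaining members, Ambp and Afm were also lower in KO in 3 of 3 litters, by small amounts. Ambp had 19711, 17672 and 17145 normalized RPF units in WT and 19131, 15172 and 16115 in KO (change -0.12, SE 0.13), and Afm 2950, 2102 and 1871 in WT and 2650, 1958 and 1866 in KO (-0.087, SE 0.18). In all, 5 of 10 members (Alb, Afm, Gc, Fetub and Ambp) had normalized values lower in KO in 3 of 3 litters, which held for 23.8% of all genes. None was higher in 3 of 3 litters, against 17.4% of all genes, and for 0 of 10 did the RPF groups not overlap, against 19.8%. These counts depended on the scale. As a share of RPF reads, Alb, Gc and Fetub were lower in KO in 3 of 3 litters, but Afm and Ambp in only 1 of 3. Ahsg, whose shares did not overlap, was lower in KO in 0 of 3. Ttr (-0.046, SE 0.15), Rbp4 (-0.022, SE 0.13), Hpx (-0.0045, SE 0.17) and Trf (0.016, SE 0.14) had changes smaller than their errors, and in Ttr the litters went from 0.34 in litter 1 to -0.40 in litter 2.

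**Figure D3:**
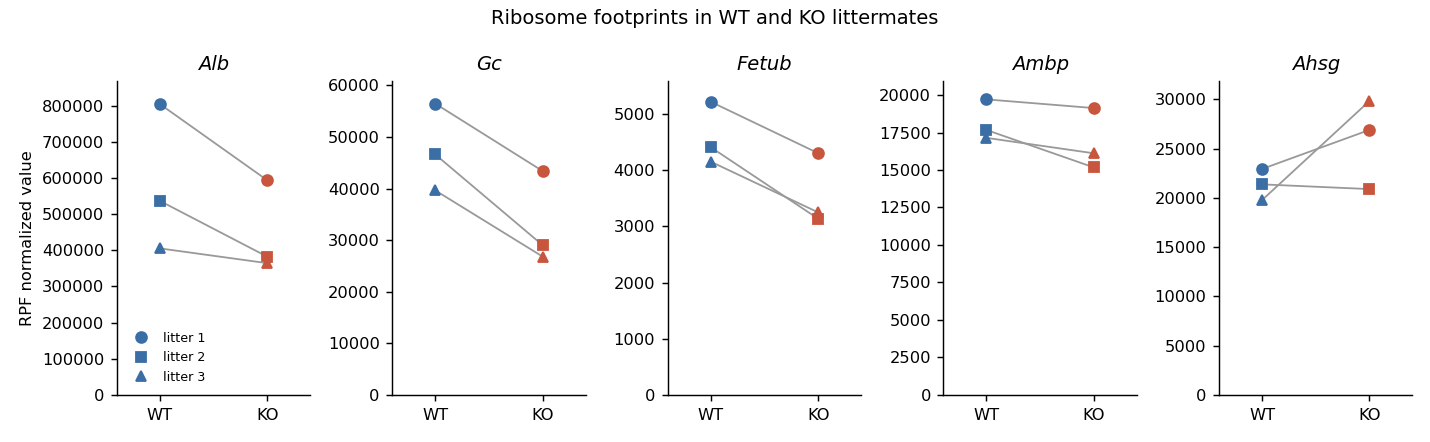
Normalized RPF value (axes from 0) of Alb, Gc, Fetub, Ambp and Ahsg in each mouse, blue for WT and red for KO, with a line joining littermates and the marker shape giving the litter. In Alb, Gc, Fetub and Ambp all 3 lines fall, with litter 1 the highest in each genotype, and in Ahsg 2 of 3 rise.

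The albumin family members have coding sequences of low GC content, and the RPF libraries differed in how their values ran with GC content. Coding GC content was 45.9% in Afm, 47.1% in Gc and 48.5% in Alb, below the median of 52.5%, and 52.2% to 56.3% in the other 7 members. With the 6 RPF libraries centred on their mean, the log2 value changed per 10 points of GC content by -0.17, -0.14 and -0.081 in the WT mice and by -0.0080, 0.13 and 0.28 in the KO mice, so every KO library had a higher slope than every WT library. Among the 1093 tested genes with a coding GC content from 45.9% to 48.5%, the median RPF change was -0.15 and 72.4% were below 0. Afm turned from -0.087 to 0.091 when each library's GC trend was removed, and Alb went from -0.36 to -0.24. Fetub, at 54.0%, was -0.40 in that fit. The part of GC content in the RPF changes was not tested beyond this fit.

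**Figure D4:**
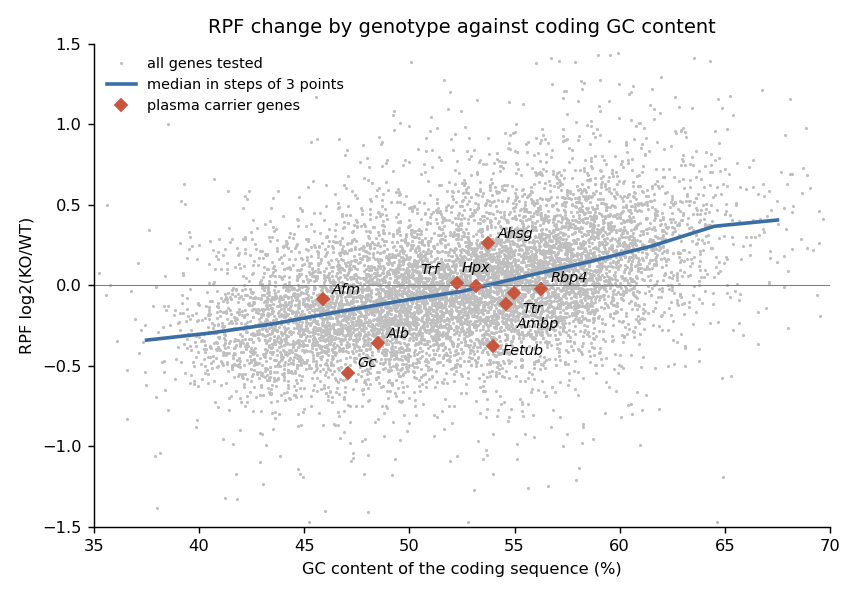
RPF change by genotype (log2 of KO over WT, limma) against the GC content of the coding sequence (%), with 8985 genes in grey, their median in steps of 3 points of GC content as a blue line and the 10 carrier genes in red (46 genes lie outside the axes). The median line rises from left to right, Alb and Gc lie below it at low GC content, Fetub lies below it near the middle, and Afm and Ahsg lie above it.

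TE, tested as the difference between the RPF and input changes in the same limma fit, changed in 0 of 10 members (all adjusted p = 0.998) and in 0% of the 8994 genes, 423 of which had an unadjusted p under 0.05. edgeR on the recovered reads and a fit with mouse as a block also called 0 genes, with 420 and 774 at an unadjusted p under 0.05. The TE change was -0.27 (SE 0.24) for Gc, -0.24 (SE 0.23) for Fetub, -0.18 (SE 0.33) for Alb, 0.19 (SE 0.21) for Ttr and 0.14 (SE 0.22) for Ahsg, and the other 5 were between -0.039 and 0.080. The median over the members was 0.027, against -0.011 over all genes.

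Within litters, the direction of TE was the same in all 3 litters about as often among the members as among all genes. TE was lower in KO in 3 of 3 litters for Alb, with log2 differences of -0.11, -0.13 and -0.31, and for Trf, with differences of only -0.034, -0.043 and -0.041 (2 of 10 members, against 16.4% of all genes). It was higher in 3 of 3 litters for Ahsg (0.17, 0.096 and 0.14) and Rbp4 (0.028, 0.084 and 0.13), again 2 of 10, against 14.7% of all genes. For no member were the TE groups apart, which 13.4% of all genes were. Ttr had the widest spread, from 0.88 in litter 1 to -0.20 in litter 2, its TE per length being 6.15, 8.06 and 8.50 in WT and 11.3, 7.005 and 7.94 in KO.

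**Figure D5:**
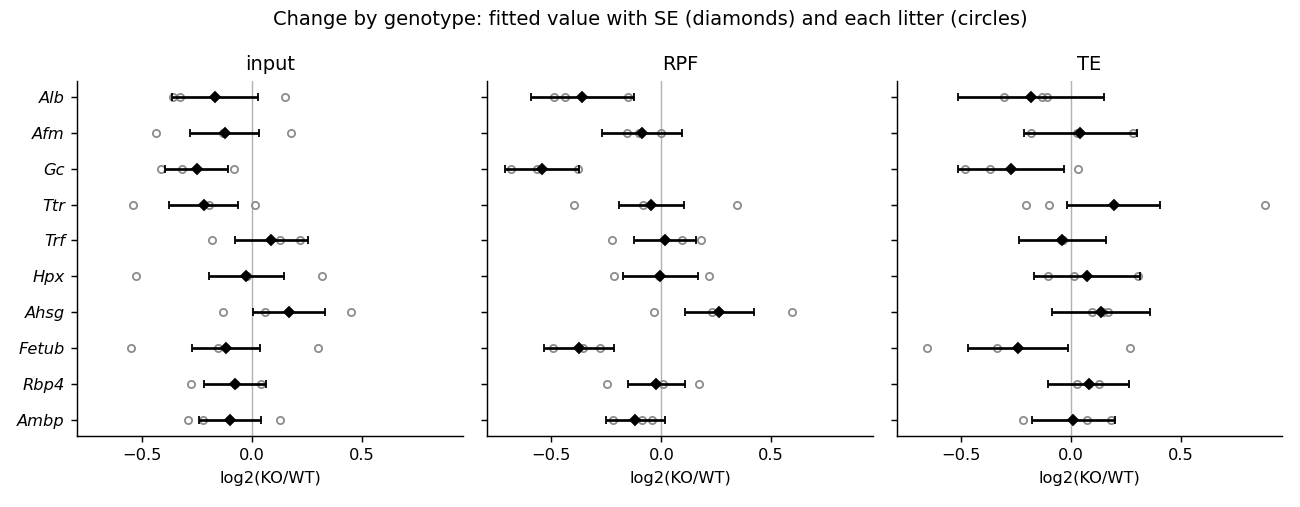
Change by genotype (log2 of KO over WT) of the 10 genes in input, RPF and TE on 1 shared axis, with the fitted value and its SE as diamonds and bars (edgeR on counts for input, limma for RPF and TE) and the difference within each litter, from the normalized values, as open circles. Gc and Fetub sit furthest left in RPF and Ahsg furthest right, and in the input and TE panels most bars cross 0.

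Across the 12 libraries, with each assay centred on its own mean, the genes that ran most closely with Alb were Hsd11b1, which regenerates active glucocorticoid (Pearson r = 0.952), Cfi, a protease of the complement system (r = 0.949), and Stom, a membrane protein (r = 0.942). Among the members Afm ranked 7 of all genes by this measure (r = 0.927), Gc 23 (r = 0.892), Fetub 62 (r = 0.841) and Ambp 234 (r = 0.745). Ttr, Hpx and Rbp4 were at 0.406 to 0.451, Trf at 0.136 and Ahsg at -0.00060. The 12 libraries come from 6 mice and share litters, depth and the trend with GC content, so these values describe likeness in these libraries and carry no p-value.

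Other carrier and transport proteins of plasma (14 listed, 11 tested) showed the same lack of calls. None passed in input, RPF or TE, and 7 of 11 were below 0 in RPF, with a median of -0.21. The smallest p-values were those of Orm1, an acute-phase carrier of basic drugs, at 1951 ± 629 normalized RPF units in WT and 1152 ± 83 in KO (change -0.71, SE 0.18, limma adjusted p = 0.0788), and of Azgp1, a lipid-mobilising glycoprotein, at 5575 ± 970 and 3927 ± 651 (-0.50, SE 0.15, adjusted p = 0.132). With the litter block Azgp1 (adjusted p = 0.0410) and Hrg, the histidine-rich glycoprotein, passed as lower in KO and Orm1 did not (0.0576). Thus 2 of the 11 tested passed, in a fit that called 3.26% of all genes. Orm1 has close copies in the mouse genome, so its reads may be shared with them. The 4 inter-alpha-inhibitor heavy chains, which are joined to the bikunin part of Ambp, had a median RPF change of -0.12 with 4 of 4 below 0 and none passing. Itih2 had -0.17 (SE 0.14) and Itih3 -0.19 (SE 0.14), against -0.12 for Ambp.

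Among receptors and uptake proteins (12 listed, 9 tested) 1 passed in RPF, in a fit that called 0.489% of all genes. This was Tfrc, the transferrin receptor, which fell from 202.0 ± 22 to 101.9 ± 18 normalized RPF units (change -0.99, SE 0.19, limma adjusted p = 0.0223). The RPF fit without KO mouse 2 called no gene, so Tfrc did not pass there. Its input change was -0.50 (SE 0.20, edgeR adjusted p = 0.999) and its TE change -0.45 (SE 0.28, limma adjusted p = 0.998), whereas its ligand Trf had an RPF change of 0.016. The median of this list in RPF was 0.087. Of the 12 genes that handle the ligands (retinol, thyroid hormone, haem, iron and vitamin D), none passed, with a median RPF change of 0.0056. The 2 with the smallest p in RPF were the ferritin chains Fth1 (0.36, SE 0.19) and Ftl1 (0.48, SE 0.30), the latter with close copies in the genome.

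The transcription factors of liver secretory genes (15 listed, 14 tested in RPF) gave no calls, with a median RPF change of 0.045 and 7 of 14 below 0. Hlf had a change of -0.47 (SE 0.27) on normalized RPF means of 31.3 in WT and 22.2 in KO. The machinery through which the carriers are secreted (42 genes of the translocon, folding and export, 39 tested) had a median RPF change of -0.19, with 32 of 39 below 0 (54.0% of all genes) and none passing. The same list was also mostly lower in the input, with 34 of 40 below 0 (50.0% of all genes) and a median of -0.097. In TE 23 of 39 were below 0 (51.3% of all genes), with a median of -0.064. Srpr, the receptor of the signal recognition particle, had 740 ± 11 normalized RPF units in WT and 489 ± 49 in KO (-0.60, SE 0.14, limma adjusted p = 0.0626), and Ssr3, a translocon-associated protein, 742 ± 43 and 516 ± 65 (-0.53, SE 0.13, adjusted p = 0.0691). With the litter block both passed (adjusted p = 0.0156 each), together with Sec11a, a signal peptidase subunit, and the chaperone Hspa5, all lower in KO. These were 4 of the 39 tested, in a fit that called 3.26% of all genes.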

How the data were processed

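Input and RPF libraries of 3 WT and 3 KO livers were analysed. The authors trimmed reads with BBDuk, aligned the input to mm10 with STAR 2.7.3a in paired-end mode, and deposited counts of read pairs per gene over exons from featureCounts (1.6.0 in the methods, 2.0.3 in the file header, strand-specific). The RPF reads were shortened to footprint length, cleared of rRNA reads and passed through RiboToolkit. The second deposited table holds a signal for 10607 genes that the authors normalized: in all 12 columns 100% of values were whole multiples of 1 factor per library (tolerance 0.01 reads), with no gene length in it although it is labelled RPKM. The origin of these factors, and of the choice of genes, is not given in the sources used here. The authors' fold changes and p-values, also in that table, were not used.

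The 10 members and all gene lists were chosen with earlier results of these data known. Genes named were the members, Mettl5, the genes of each list passing an adjusted p of 0.05 or else the 2 with the smallest p in RPF, and the 3 most correlated with Alb. One gene that this rule names is not reported here. Hrg, Sec11a and Hspa5 were named after their values were seen. Input counts were tested with edgeR 4.0.16 (TMM, filterByExpr, quasi-likelihood). For RPF and TE, limma 3.58.1 (trend and robust) was run on log2(value + 1) in 12 libraries, keeping the 8994 genes whose mean reached 10 in both assays. Fold changes are therefore on that scale. DESeq2 1.42.0, edgeR on the recovered reads and other settings were alternatives (R 4.3.3). The edgeR and limma fits were tested on simulated counts. Coding sequences came from GENCODE M21, which gave 99.9% of the table's genes a coding sequence, and 99.4% of the shared genes had the same position there as in the count file.

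Replicate numbers mark littermates in the labels. In the RPF libraries the deviations of littermates from their group means correlated at 0.24, 0.14 and 0.19, and in the input at 0.082, 0.13 and 0.10, so a fit with litter as a replicate block was also made. No assay was repeated on a liver, so p-values rest on the spread between mice. The main limma fit for RPF and TE took the input and RPF libraries of a mouse as independent. Its SEs therefore pool the spread of both assays and leave out the pairing within a mouse. For Trf the TE differences within litters were -0.034, -0.043 and -0.041, whereas the SE of its TE change was 0.20. The TE fit with mouse as a block uses that pairing.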

Additional observations from a re-analysis of the deposited data

How the results depend on the processing

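In the input and TE, 0 of 10 members passed under every alternative tried and in every fit without 1 mouse, including the replicate block of litter. In RPF 1 member, Gc, passed with the replicate block of litter, and 1 with RPF columns alone with that block, an alternative chosen after seeing the data (adjusted p = 0.0204). Without 1 mouse 0 to 1 passed. The block changed no other call of a member. All genes called in RPF numbered 44, but 293 with the replicate block, 353 with the block on RPF columns alone, 23 on RPF columns alone, 11 with the GC trend removed, 84 with the GC trend removed and the block, 63 with a mean of at least 50 and 0 to 226 without 1 mouse (0 without KO mouse 2, 226 without KO mouse 1). Input calls numbered 0, but 1 with DESeq2, 30 with no filter on low counts, 2 with the block, 2 with limma on the normalized table and 0 to 21 without 1 mouse. TE calls stayed at 0.

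Fits without 1 mouse turned the sign of small changes: in the input Afm ran from -0.26 to 0.054, Fetub from -0.23 to 0.025, Hpx from -0.20 to 0.14 and Trf from -0.014 to 0.19. In RPF Afm ran from -0.24 to 0.10, Hpx from -0.097 to 0.15, Rbp4 from -0.078 to 0.074, Ttr from -0.18 to 0.083 and Trf from -0.041 to 0.13. In TE Trf ran from -0.10 to 0.018, Hpx from -0.024 to 0.19, Ambp from -0.13 to 0.13, Afm from -0.11 to 0.15 and Ttr from -0.0079 to 0.34. Alb, Gc, Fetub and Ahsg kept their sign in RPF in each of these fits: Alb ran from -0.59 to -0.098 and Gc from -0.76 to -0.41. In RPF Hpx also turned to 0.0055 with TMM factors and 0.029 with edgeR, and Afm to 0.091 with the GC trend removed, with or without the block. In TE Ambp turned to -0.00098 with TMM factors. With the GC trend removed Ambp turned to -0.028 and Rbp4 to -0.015, with or without the block. The cause was not tested.

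The summed input share was 12.2% instead of 8.61% in WT, and 11.5% instead of 8.27% in KO, with rRNA, mitochondrially encoded, Lars2 and Mup genes left out of the denominator, and was 9.79% in WT over the full count file without rRNA genes and Lars2. Without 1 mouse it was 8.32% to 9.05% (WT input), 7.55% to 8.78% (KO input), 16.3% to 19.7% (WT RPF) and 15.1% to 17.7% (KO RPF). The log2 TE of the median member relative to the median gene was 1.44 (1.36 to 1.49 without 1 mouse) and 0.30 per length.

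SEs of the members' RPF changes were 0.13 to 0.23 on the log2 scale, and a change of -0.54 with an SE of 0.17 (Gc) did not pass without the block. The shares of depth and of the number of mice in this were not tested.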
